A study of Mus musculus with 2 samples.

Results

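The 9 genes described here carry cytokine signals or stop them: the kinases Jak1, Jak2 and Jak3, the transcription factors Stat2, Stat3, Stat5b and Stat6, and the inhibitors Socs1 and Socs3. They were taken by symbol from the array's annotation, as every probe set that is annotated to 1 gene and names one of them, which gave 19 of the 22626 probe sets in the table. A probe set is a group of short probes for one transcript, and its signal is 1 value on each array. A further 2 probe sets, annotated to Jak3 together with another gene, were left out. The rule goes by symbol and function and uses no signal.

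A pair of mature B cell populations of the mouse spleen were compared, with 1 array of each. Marginal zone B cells lie beside the marginal sinus and meet blood-borne antigen early, and follicular B cells recirculate through the lymphoid follicles. Both came from wild-type female C57BL/6 mice whose age the labels do not give. B cells were drawn from 3 spleens with beads against B220, stained for CD21 and CD23, and sorted: marginal zone cells by high CD21 and intermediate CD23, follicular cells by high CD23 and intermediate CD21. Sorted cells were pooled before lysis, so each array is the average of a pool, and the labels do not say whether the same mice gave both pools. No population had a replicate, so values have no error between samples and no test or p-value could be made. Differences are given as sizes: the log2 ratio divides the marginal zone signal by the follicular one, and 2-fold is the threshold.

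A cytokine that binds its receptor brings together the JAK kinases held on the receptor's inner tails. The JAKs phosphorylate the receptor and each other, STAT proteins dock there and are phosphorylated in turn, and STAT dimers enter the nucleus and switch on target genes. Genes of the SOCS family are among those targets; SOCS proteins bind JAKs or receptors, block the kinase and bring in a ubiquitin ligase, so the signal limits itself. In B cells the best known example is interleukin-4, which acts through JAK1, JAK3 and STAT6 and raises CD23, the low-affinity IgE receptor that is also a marker of this sort.

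The sort could be read in its own marker transcripts. Fcer2a, the gene of CD23, had a signal of 89.6 in marginal zone and 726.8 in follicular B cells. Cr2, the gene of CD21, had 889.9 in marginal zone and 277.9 in follicular cells, and Ptprc, the gene of B220, had 1987 in marginal zone and 1901 in follicular cells. These genes chose the cells and are no result. The B cell genes Ms4a1, Cd79a, Cd79b and Pax5 were above the floor on both arrays. Of these, Cd79b had 545.9 in marginal zone and 1039.9 in follicular cells, 1.90-fold lower, and Cd79a had 115.6 in marginal zone and 196.7 in follicular cells, 1.70-fold lower. The floor is a signal of 12.7, the median of all values of both arrays, and a probe set is called measured when its higher signal exceeds it. The 12 macrophage and monocyte markers had a summed signal of 210.5 in marginal zone and 90.9 in follicular cells. Measured were 8 of the 12, 5 (Cd5l, C1qb, Cd68, Vcam1 and Cd14) through the marginal zone signal alone, so the filter set their direction. The other 3 were higher in marginal zone cells: Csf1r with 42.5 in marginal zone and 17.3 in follicular cells (its 3 probe sets ran from 0.17 to 1.70 in log2 ratio), Lyz2 with 25.2 in marginal zone and 12.9 in follicular cells, and Adgre1 with 24.9 in marginal zone and 23.7 in follicular cells. Cd5l had 26.7 in marginal zone and 11.1 in follicular cells, at least 2.11-fold higher. The 4 not measured, C1qa, C1qc, Marco and Itgam, were below the floor on both arrays. Of 7 T cell markers 2 were measured, Cd3e and Cd4, both through the follicular signal alone, with a summed signal of 20.1 in marginal zone and 41.8 in follicular cells. The summed signal of 5 neutrophil markers was 53.5 in marginal zone and 53.7 in follicular cells, that of 5 dendritic cell markers 60.4 in marginal zone and 49.3 in follicular cells, that of 5 NK cell markers 36.3 in marginal zone and 29.1 in follicular cells, and that of 3 red cell markers 15.6 in marginal zone and 33.9 in follicular cells. The part of such cells in the ratios below was not tested.

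Most of the 9 genes had a somewhat lower signal in marginal zone B cells, and Socs3 was the one that passed 2-fold. Of the 19 probe sets, 18 were measured, 16 of them lower in marginal zone cells and 2 higher. Of all measured probe sets on the arrays, 51.9% were lower in marginal zone cells by any amount. Of the 18, 3 were measured through the follicular signal alone (Socs1, 1 of Stat5b and 1 of Socs3), so the filter set their direction. Of the 15 with both signals above the floor 13 were lower and 2 higher, against 51.2% lower of all 9777 such probe sets, with a median log2 ratio of -0.51 over the 15 and -0.01 over the 9777. The median log2 ratio was -0.53 over the 18 member probe sets and -0.02 over all 12847 measured ones. At least 2-fold lower were 3 of the 18, all of Socs3, and 0 were 2-fold or more higher, against 4.76% and 4.27% of all measured probe sets. Counted by gene, with each gene taken at its brightest measured probe set, 7 of 9 were lower, against 52.2% of all measured genes, and 2 higher; without Socs1, 6 of the 8 with both signals above the floor were lower, against 52.0% of all 5884 such genes. Past the threshold, 1 was 2-fold or more lower, against 4.86% of the 7695 measured genes, and 0 were 2-fold or more higher, against 4.39%. Several probe sets of 1 gene read the same RNA and are not replicates. In bulk RNA, fewer cells that hold a transcript and less of it per cell cannot be told apart.

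**Figure D1:**
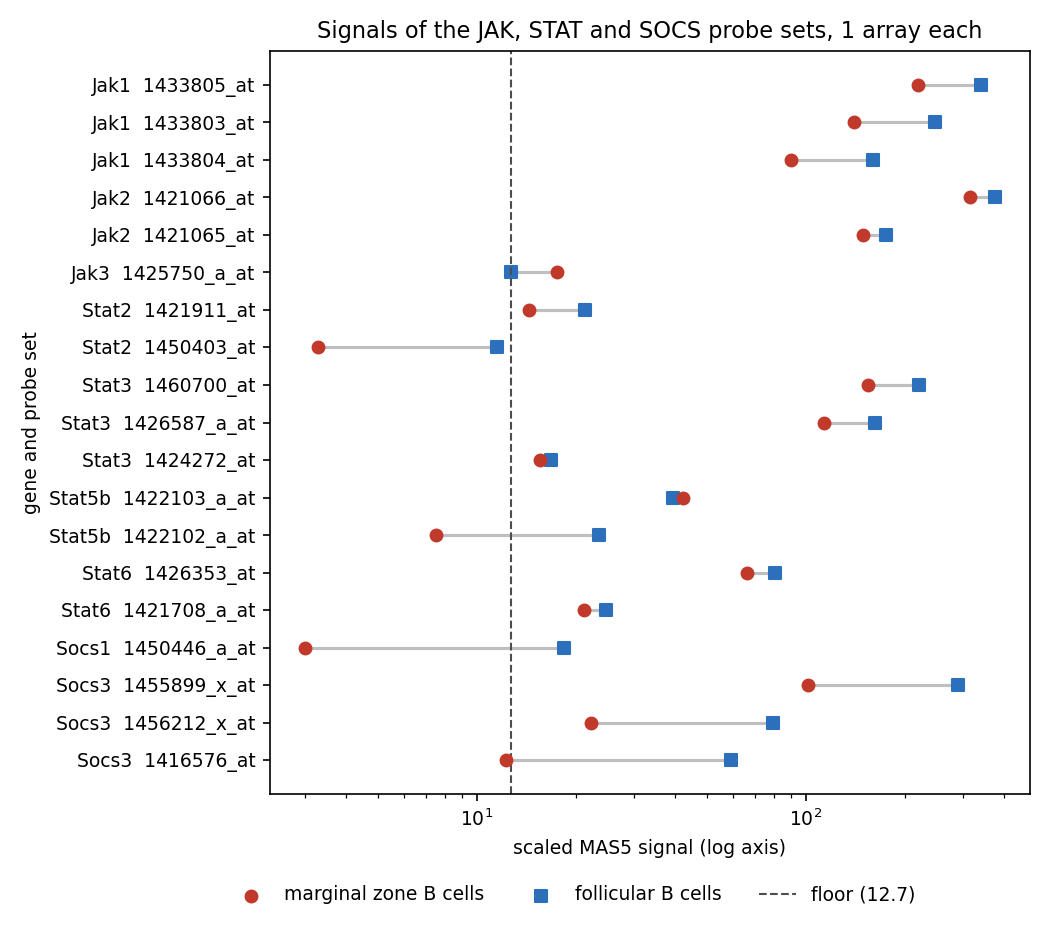
Scaled MAS5 signal (log axis) of each of the 19 probe sets in marginal zone (red circles) and follicular B cells (blue squares), 1 array each, with the floor of 12.7 dashed. The red circle lies well to the left of the blue square in all 3 Socs3 rows, by less in the 3 Jak1 rows, and close to it in the 2 Jak2 and 2 Stat6 rows. The gap is widest in the Socs1 row and also wide in 1 row each of Stat2 and Stat5b. In these the marginal zone signal lies under the floor, so the width cannot be read as a size.

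Socs3, a feedback inhibitor that STAT3 induces and that blocks JAK signals from interleukin-6 type receptors, was lower in marginal zone B cells by all 3 of its probe sets. The brightest, 1455899_x_at, had 101.4 in marginal zone and 289.9 in follicular cells, 2.86-fold lower in marginal zone cells. A further one, 1456212_x_at, had 22.2 in marginal zone and 79.6 in follicular cells, 3.59-fold lower. The last, 1416576_at, had 12.3 in marginal zone cells, under the floor, and 59.4 in follicular cells, at least 4.69-fold lower. The log2 ratios thus ran from -2.23 to -1.51, while probe sets of 1 gene differed with an SD of 0.43 over 2622 genes with several. In their names "_x_at" marks probe sets with probes that can also bind other transcripts; the one without that mark had the lowest ratio, and rests on a floored value. Among 891 genes with 3 or more measured probe sets, 3 (0.337%) had all of them 2-fold or more lower in marginal zone cells: Socs3, Mtss1 and Parp1, the last 2 named after their values were seen. Socs3 is among these 3 only with 1416576_at counted. That probe set was measured through its follicular signal alone, so the filter set its direction. Among member probe sets with both signals above the floor, the one just past 2-fold was that of Socs3 at -1.51, and the one just within it was that of Jak1 at -0.82. A probe set each of Stat5b and Socs1 has only a bound within 2-fold and may lie past it.

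Socs1, which binds JAKs directly and is induced by interferons and interleukin-4, had 1 probe set near the background. Its signal was 3.0 in marginal zone and 18.4 in follicular cells, so it was at least 1.45-fold lower in marginal zone cells. The marginal zone value is below the floor, where MAS5 signals have no reliable order, and the size of the difference beyond that bound cannot be read. It counts as measured through its follicular signal alone, so its direction was set by that filter.

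The 250 bases before the start of the 2 SOCS genes and of Stat2 are shown, since these genes are themselves known targets of STAT proteins and were the members with a match to a searched motif. Sequences are from RefSeq, build GRCm38.p6, 5′ to 3′ on the gene's strand. All 9 genes had such a window, 10 windows in all since Stat5b had a pair. Searched on both strands were TTCNNNGAA, the core that STAT dimers bind, TTCNNNNGAA, the wider spacing that STAT6 prefers, and GAAANNGAAA, the repeat of interferon response elements; matches are in capitals.
Socs3: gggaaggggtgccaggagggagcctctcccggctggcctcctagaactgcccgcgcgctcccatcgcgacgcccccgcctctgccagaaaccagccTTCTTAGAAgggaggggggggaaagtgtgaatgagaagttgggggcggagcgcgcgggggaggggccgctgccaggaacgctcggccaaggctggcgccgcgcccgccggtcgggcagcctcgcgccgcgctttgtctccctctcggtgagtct
Socs1: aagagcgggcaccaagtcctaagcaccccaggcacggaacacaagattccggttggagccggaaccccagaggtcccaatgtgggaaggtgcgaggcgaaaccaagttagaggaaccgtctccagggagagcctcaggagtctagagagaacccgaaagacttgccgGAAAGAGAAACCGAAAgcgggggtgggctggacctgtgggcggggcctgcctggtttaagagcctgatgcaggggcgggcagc
Stat2: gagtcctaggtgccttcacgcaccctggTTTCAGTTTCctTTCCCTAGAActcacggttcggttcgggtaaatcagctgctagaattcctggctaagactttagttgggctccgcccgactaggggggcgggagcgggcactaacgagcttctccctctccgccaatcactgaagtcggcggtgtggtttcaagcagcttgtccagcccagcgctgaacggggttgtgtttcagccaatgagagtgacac
The Socs3 window is chr11:117969367-117969616 on the minus strand. It holds 1 TTCNNNGAA, as TTCTTAGAA, from 154 to 146 bases before the start. The Socs1 window is chr16:10785537-10785786 on the minus strand and holds GAAANNGAAA at 2 places, as GAAAGAGAAA from 83 to 74 and GAAACCGAAA from 77 to 68 bases before the start, which overlap each other. The Stat2 window is chr10:128270248-128270497 on the plus strand and holds 1 GAAANNGAAA, read on the other strand as TTTCAGTTTC from 222 to 213, and 1 TTCNNNNGAA, as TTCCCTAGAA from 210 to 201 bases before the start. The other 7 windows hold none of the 3 motifs. Of all 32851 windows of this length, 7.02% hold TTCNNNGAA, 5.85% TTCNNNNGAA and 2.98% GAAANNGAAA. A match describes these letters and is no sign that a factor binds there in either population.

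Among the kinases, Jak1 had the clearest difference, and it stayed within 2-fold. Jak1 pairs with most receptors of the interferon, interleukin-6 and common gamma chain families. Its 3 probe sets had 218.8, 140.3 and 90.1 in marginal zone cells, against 341.4, 246.6 and 159.4 in follicular cells in the same order. They were 1.56-fold, 1.76-fold and 1.77-fold lower in marginal zone cells. The log2 ratios of -0.64, -0.81 and -0.82 lie close together beside the SD of 0.43 between probe sets of 1 gene. The annotation gives all 3 the same source sequence, so their closeness is no independent evidence of the difference. Of the 891 genes with 3 or more measured probe sets, 24.9% had all of them lower in marginal zone cells by any amount.

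Jak2, the kinase of receptors for interferon gamma, growth hormone and several myeloid cytokines, was nearly level between the populations. One probe set had 314.6 in marginal zone and 375.8 in follicular cells, and the other 149.3 in marginal zone and 175.4 in follicular cells. They were 1.19-fold and 1.17-fold lower in marginal zone cells. Jak3, which is bound by the common gamma chain and so serves interleukin-4, interleukin-7 and interleukin-21, had 17.5 in marginal zone cells and 12.7, at the floor, in follicular cells. It was 1.38-fold higher in marginal zone cells, a ratio between 2 dim signals. Its array reading was a single probe set, and Il2rg, the gene of the common gamma chain, was not analysed here.

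Of the STAT genes, Stat3 was lower in marginal zone cells where its probe sets were bright and Stat6 was nearly level. Stat3, which carries signals of interleukin-6, interleukin-10 and interleukin-21, had 154.4 in marginal zone and 220.5 in follicular cells by one probe set and 113.6 in marginal zone and 162.0 in follicular cells by another. Both were 1.43-fold lower in marginal zone cells. Its dim remaining probe set had 15.6 in marginal zone and 16.8 in follicular cells, a log2 ratio of -0.10. Stat6, the factor of interleukin-4 and interleukin-13, had 66.2 in marginal zone and 80.7 in follicular cells, 1.22-fold lower, and by its other probe set 21.2 in marginal zone and 24.7 in follicular cells, 1.16-fold lower. The probe sets of each of these genes agreed in sign.

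Stat5b and Stat2 were dim. Stat5b, which answers interleukin-2, interleukin-7 and growth hormone, had 42.4 in marginal zone and 39.6 in follicular cells by the brighter of its probe sets, 1.07-fold more in marginal zone cells. The other probe set had 7.5 in marginal zone cells, under the floor, and 23.6 in follicular cells, at least 1.87-fold lower. It is measured through its follicular signal alone, so the filter set its direction, and Stat5b has 1 ratio with both signals above the floor. Stat2, part of the factor that type I interferon activates, had 14.4 in marginal zone and 21.4 in follicular cells, 1.49-fold lower. Its other probe set, with 3.3 in marginal zone and 11.5 in follicular cells, was below the floor on both arrays and was the member probe set that was not measured.

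**Figure D2:**
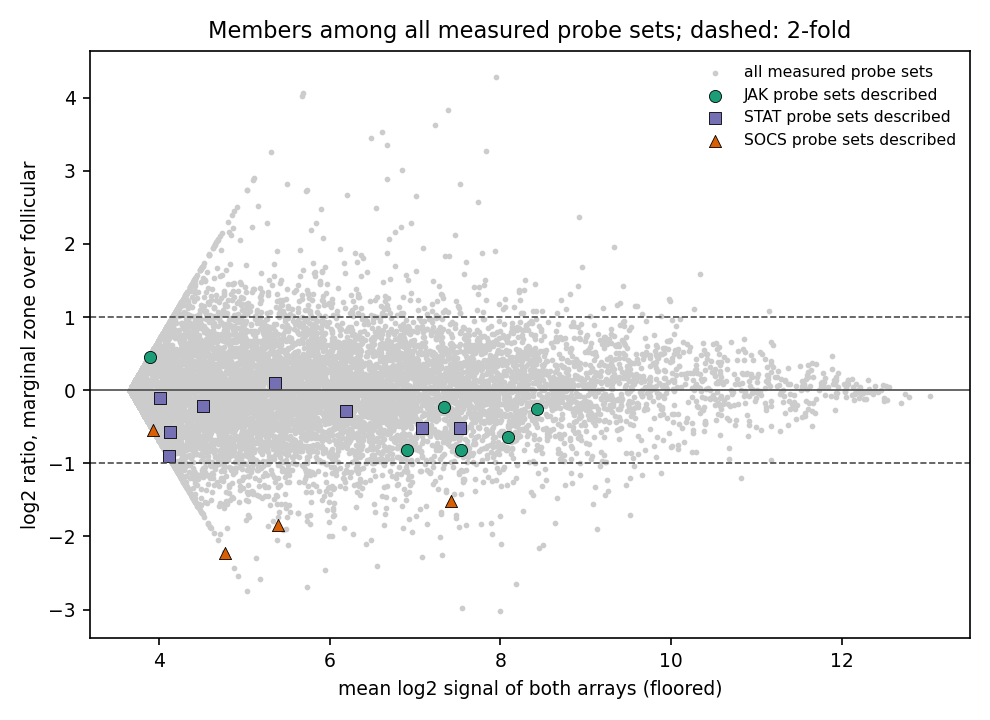
Log2 ratio (marginal zone divided by follicular) (vertical) against mean log2 signal of both arrays (horizontal) for all 12847 measured probe sets (grey), with the 18 measured probe sets of the JAK (green), STAT (purple) and SOCS genes (orange) marked and 2-fold dashed. The 3 Socs3 triangles lie below the lower dashed line, and the other 15 marked points lie between the lines.

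By family, the 6 JAK probe sets had a median log2 ratio of -0.45 and the 8 measured STAT probe sets one of -0.40, and 0 of them passed 2-fold either way, 1 STAT ratio being a bound. The 4 SOCS probe sets, 3 of them of Socs3, had a median of -1.68, with 2 of the 4 ratios being bounds. Of probe sets whose higher signal was above 200, 4.57% were 2-fold or more lower in marginal zone cells, and 1 of 5 such member probe sets was. Between 50 and 200 it was 6.21%, and 2 of 6 member probe sets. From the floor to 50 it was 4.04%, and 0 of 7 member probe sets. All member probe sets past 2-fold in these ranges were of the 1 gene Socs3 and read the same RNA, and 1 of them is a bound.

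The rest of the JAK, STAT and SOCS genes went both ways, and 1 of 9 measured genes was 2-fold or more lower and 1 was 2-fold or more higher in marginal zone cells. Their median log2 ratio was -0.20, against -0.03 over all measured genes. Cish, a SOCS-type inhibitor that STAT5 induces, had 51.6 in marginal zone and 18.9 in follicular cells, 2.73-fold higher in marginal zone cells, the opposite direction to Socs3. Stat5a, the close relative of Stat5b that lies beside it and Stat3 on chromosome 11, had 15.7 in marginal zone and 34.2 in follicular cells, 2.17-fold lower.

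**Figure D3:**
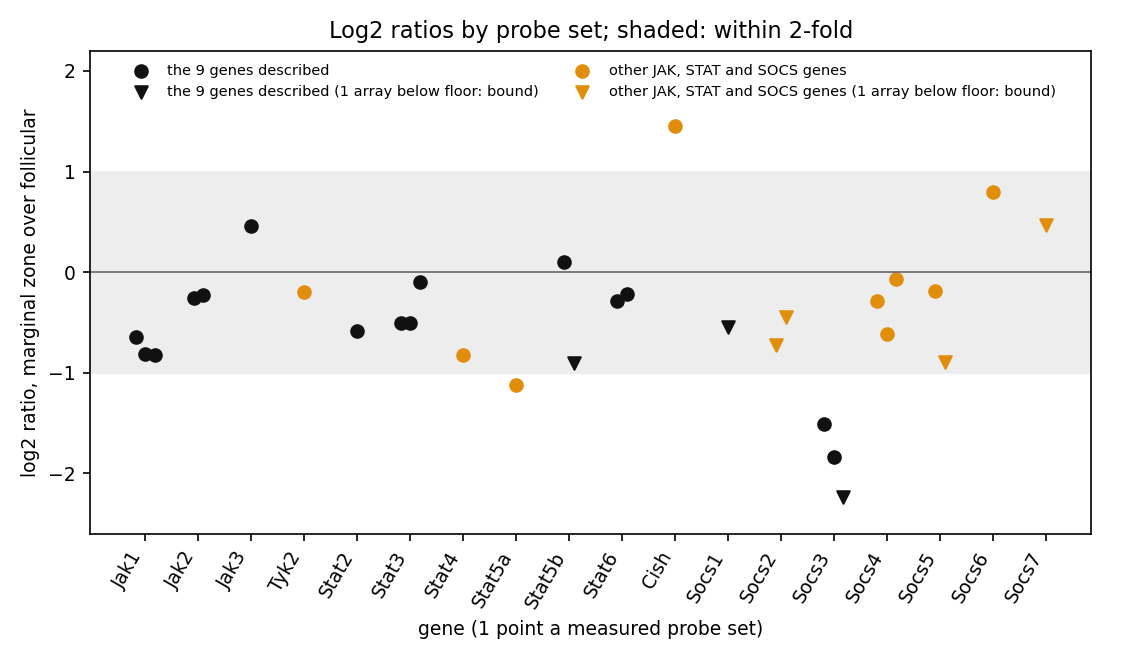
Log2 ratio (marginal zone divided by follicular) for each measured probe set of the 9 genes (black) and of the other JAK, STAT and SOCS genes (orange), with the range within 2-fold shaded; triangles mark ratios where 1 array was below the floor, which are bounds. Socs3 lies lowest, at -2.23 to -1.51, Cish highest, at 1.45, and Stat5a just past the lower edge at -1.12.

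The counts of list genes that follow are to be read against the 4.86% of all measured genes that were 2-fold or more lower and the 4.39% that were 2-fold or more higher. Upstream of the kinases, several receptor chains passed 2-fold, which 0 of the JAK genes did. Of 19 measured cytokine receptor genes, 4 were 2-fold or more lower and 1 was 2-fold or more higher in marginal zone cells. The median log2 ratio was -0.16. Of the 19, 2 were measured through the marginal zone signal alone and 3 through the follicular one, so the filter set their direction. Over the other 14, 3 were 2-fold or more lower and 1 was 2-fold or more higher, with a median of -0.31. Il4ra, the signalling chain of the interleukin-4 receptor, had 26.3 in marginal zone and 144.5 in follicular cells at its brightest, and its 3 probe sets ran from -2.46 to -0.69. Il6ra, the interleukin-6 binding chain, had 12.0 in marginal zone cells, under the floor, and 40.5 in follicular cells, at least 3.20-fold lower. Measured through its follicular signal alone, Il6ra had its direction set by the filter. Its partner Il6st, the gp130 chain that recruits JAKs and is shut off by SOCS3, had 96.9 in marginal zone and 69.3 in follicular cells, a log2 ratio of 0.48, and was named after its values were seen.

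Of the 4 interferon receptor chains, 3 were lower in marginal zone cells and 1 was higher. Ifnar1, a chain of the type I interferon receptor, had 55.2 in marginal zone and 132.4 in follicular cells, 2.40-fold lower. Its partner Ifnar2, named after its values were seen, had 98.3 in marginal zone and 55.4 in follicular cells, log2 ratios of 0.83 and 1.15 by 2 probe sets. Ifngr2, of the interferon gamma receptor, had 58.1 in marginal zone and 177.1 in follicular cells, 3.05-fold lower, but its other probe set was at -0.26. Its partner Ifngr1, named after its values were seen, had 64.7 in marginal zone and 99.3 in follicular cells, 1.53-fold lower. By brightest probe sets, the one receptor gene 2-fold or more higher in marginal zone cells was Il5ra, of the interleukin-5 receptor. It had 52.4 in marginal zone and 19.7 in follicular cells, 2.66-fold higher. Csf2ra, named after its values were seen, was at 0.02 by its brightest probe set and at 1.17, past the threshold, by its other one. Csf2rb had 22.1 in marginal zone and 0.7, under the floor, in follicular cells. It was at least 1.74-fold higher, so it may lie past the threshold. Epor, at least 1.69-fold lower, Il7r, at least 1.12-fold lower, and Il15ra, at least 1.04-fold higher, also have only a bound. Csf2rb, Epor, Il7r and Il15ra were named after their values were seen.

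Cytokine ligands were mostly below the floor. Of the 18 that the arrays hold, 5 were measured, of which 2 were 2-fold or more higher in marginal zone cells and 0 were 2-fold or more lower. Of the 5, 4 were above the floor on 1 array alone, Il10 in marginal zone and 3 in follicular cells, so the filter set their direction and none is read from their median of -0.02. Il10, the anti-inflammatory cytokine that signals through STAT3, had 42.2 in marginal zone and 2.9, under the floor, in follicular cells, at least 3.33-fold higher. Ebi3, a subunit shared by interleukin-27 and interleukin-35, had 47.1 in marginal zone and 20.9 in follicular cells, 2.25-fold higher. The summed macrophage markers above were also higher in marginal zone cells, and their part in these 2 signals was not tested.

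Brakes other than the SOCS genes had 0 of 11 measured genes past 2-fold by their brightest probe sets, with a median of -0.44. Ptpn6, the phosphatase SHP-1, named after its values were seen, had 107.4 in marginal zone and 172.6 in follicular cells, a log2 ratio of -0.68, and its dimmer probe set was past the threshold at -1.42. Ptpn11, the phosphatase SHP-2, had 471.2 in marginal zone and 281.5 in follicular cells, 1.67-fold higher, although its 3 probe sets ran from -0.13 to 0.74. Sh2b3, an adaptor that restrains JAK2, had 8.1 in marginal zone cells, under the floor, and 22.6 in follicular cells, at least 1.79-fold lower, so it may lie past the threshold. The ubiquitin ligase that SOCS proteins recruit also stayed within 2-fold in its 3 measured subunits, with a median of -0.10: Elob had 260.1 in marginal zone and 278.5 in follicular cells, and Rnf7 had 213.2 in marginal zone and 256.9 in follicular cells. The ligase subunits are housekeeping proteins that serve other complexes too.

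Genes known to respond to each STAT lay mostly within 2-fold, with a few past it. Of 12 measured interleukin-4 and STAT6 response genes, 3 were 2-fold or more lower and 0 were 2-fold or more higher in marginal zone cells; the median was -0.27. They were the sort gate gene Fcer2a, Il4ra itself and Gfi1, a repressor of transcription, with 37.8 in marginal zone and 83.9 in follicular cells. Among the other 9, 7 had both signals above the floor and lay within 2-fold by their brightest probe sets. The remaining 2, Bcl2l1 at least 1.24-fold and Il4i1 at least 1.01-fold lower, have only a bound and were named after their values were seen. Among the 7, Cd86, also named after its values were seen, was at 0.43 by its brightest probe set. Its other probe set was at 1.23, past the threshold on the higher side. This list overlaps the sort gate, so Fcer2a is no result in it.

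Of 10 measured STAT3 response genes, 1 was 2-fold or more lower and 2 were 2-fold or more higher in marginal zone cells. The median was -0.35. Of the 10, 1 was measured through the marginal zone signal alone and 1 through the follicular one, so the filter set their direction. Over the other 8, 0 were 2-fold or more lower and 2 were 2-fold or more higher, with the same median of -0.35. Bcl3, an NF-kB cofactor, had 11.8 in marginal zone cells, under the floor, and 37.9 in follicular cells, at least 2.99-fold lower. It is the one measured through its follicular signal alone. Prdm1, which drives plasma cell differentiation, had 30.9 in marginal zone cells and 12.7, at the floor, in follicular cells, 2.43-fold higher. Myc, a driver of growth, had 196.8 in marginal zone and 78.6 in follicular cells, 2.50-fold higher. Plasma cell markers, which include Prdm1, had a summed signal of 1249.3 in marginal zone and 1030.3 in follicular cells, and of these 5 genes 1 was 2-fold or more higher and 1 was 2-fold or more lower in marginal zone cells. Of the 8 STAT3 response genes with both signals above the floor, 5 were lower in marginal zone cells and 3 were higher. Socs3 thus lay on the same side as the 5, while Prdm1 and Myc were among the 3. Bcl3 also lay on the lower side, which the filter had set.

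Of 9 measured STAT5 response genes, Cish was 2-fold or more higher in marginal zone cells and 0 were 2-fold or more lower, with a median of -0.25. Through the follicular signal alone 3 of the 9 were measured; over the other 6 the median was -0.01, with 3 lower and 3 higher in marginal zone cells. With the floor raised to the 75th percentile, 3 genes were left and their median was 0.17. Socs2, an inhibitor of growth hormone signals, had 7.2 in marginal zone cells, under the floor, and 20.9 in follicular cells, at least 1.65-fold lower.

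Interferon response genes were the one list with a median above 0, at 0.29 over 16 measured genes, of which 5 were 2-fold or more higher and 2 were 2-fold or more lower in marginal zone cells. Of these 16, 4 were measured through the marginal zone signal alone, so the filter set their direction. Over the other 12 the median was 0.03, with 6 lower and 6 higher. Of these 12, 3 were 2-fold or more higher and 2 were 2-fold or more lower in marginal zone cells. With the floor raised to the 75th percentile the median was -0.10. Oas1a, a sensor of double-stranded RNA, had 54.4 in marginal zone and 21.4 in follicular cells, 2.54-fold higher. Rsad2 had 99.4 in marginal zone and 46.8 in follicular cells, 2.12-fold higher, although its other probe set was at 0.38. Oasl1 had 53.3 in marginal zone and 25.4 in follicular cells, 2.10-fold higher. Oas2 was at least 2.02-fold higher, as its follicular signal of 10.0 was under the floor, and Mx1 was the fifth, named after its values were seen. Irf1, a transcription factor that interferon gamma induces, went the other way, with 98.2 in marginal zone and 288.1 in follicular cells, 2.93-fold lower, as did Rtp4, with 20.7 in marginal zone and 43.1 in follicular cells, 2.09-fold lower. Over all lists, 10 of 89 measured genes were 2-fold or more lower and 11 were 2-fold or more higher in marginal zone cells. The median was -0.10. Without the sort gate genes, 9 of 87 were 2-fold or more lower and 11 were 2-fold or more higher. Of the genes past 2-fold, Il6ra, Bcl3, Il10, Oas2 and Mx1 were measured through a single array, so the filter set their direction.

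**Figure D4:**
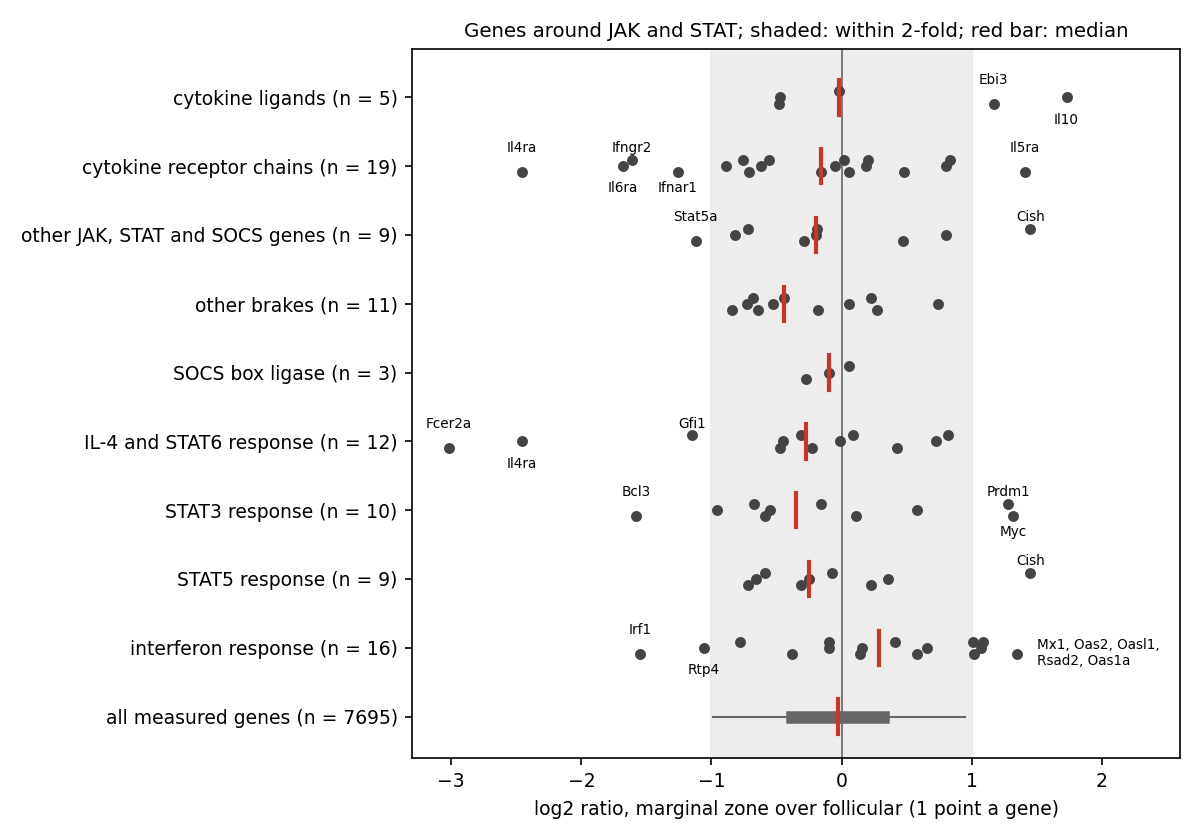
Log2 ratio (marginal zone divided by follicular) for each measured gene of the 9 lists (points), with list medians as red bars, the range within 2-fold shaded and genes past it named; floored ratios are drawn at their bound. The bottom row shows all 7695 measured genes, with the median in red, the middle 50% as a thick bar and the middle 90% as a thin line. Il4ra and Fcer2a lie farthest left and Il10 farthest right.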

How the data were processed

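RNA was measured on 2 single-channel Affymetrix arrays, 1 of marginal zone and 1 of follicular B cells, each from about 100 ng of total RNA labelled in 2 cycles, per the labels' protocols. The deposited table holds 1 linear intensity per probe set and array, made with MAS5 per the submitters' processing notes; the sources used here give no version, target or detection call. MAS5 signals near background are noisy, so small ones were floored.

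With Python 3.11.15, numpy 2.4.6 and pandas 2.3.3, each array was scaled to a common 2% trimmed mean, by factors of 0.990 for marginal zone and 1.01 for follicular cells. The deposited medians were 12.6 for marginal zone and 12.8 for follicular cells. Values below the median of both scaled arrays, 12.7, were raised to it; ratios with a floored value are written "at least". The brightest measured probe set (by mean log2 signal) stood for its gene. The platform's annotation gave 1 gene to 20380 probe sets, several to 691 and none to 1555; of the 20380, 20351 matched RefSeq by Entrez identifier. The steps were tested on simulated data.

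The members, the 9 gene lists and the 8 marker lists were chosen with earlier results of these data known. Named were all member probe sets and, from each of the 9 lists, up to 6 genes past 2-fold or else the leading 2; other names are marked. With 2 arrays a gene has 1 ratio, so no likeness of pattern was computed. Precision is limited by the number of arrays. The alternatives were other scalings, floors, fold thresholds and probe set rules, lists without the sort gate genes, and, chosen after seeing the data, the omission of probe sets whose names end in "_s_at" or "_x_at".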

Additional observations from a re-analysis of the deposited data

How the results depend on the processing

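No paired analysis was possible because each population has 1 array, and for the same reason no replicate could be left out. The 8 other scalings and floor settings reversed the sign of none of the 15 member probe sets with both signals above the floor, where they were measured. Scaling (values as deposited, to the median, to the 75th percentile, or by quantiles) left the member counts as reported. The lower counts depended on the floor, since several member signals lie near it. With the floor at the 25th percentile or with no floor, 6 member probe sets and 2 member genes were at least 2-fold lower in marginal zone cells, Socs1 being the second gene at log2 ratios of -2.26 and -2.63. With the floor at the 75th percentile 1 member probe set was, the brightest of Socs3, whose ratio ran from -1.51 to -1.41 over all 8 settings; the other Socs3 probe sets were then at -0.80 and -0.38. At 1.5-fold, 7 member probe sets and 2 member genes were lower; at 3-fold, 0 member genes were. Without "_s_at" and "_x_at" probe sets, 1 member probe set, of Socs3, was at least 2-fold lower. Over the pathway lists, genes lower and higher in marginal zone cells numbered 5 and 2 with the floor at the 75th percentile, 20 and 23 with no floor, 25 and 18 at 1.5-fold, and 4 and 1 at 3-fold; with a pseudocount replacing the floor, 5 were higher. In these the construction of the alternative (more or fewer genes measured, another threshold, shrunken ratios) sets the change.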

Other observations

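The probe sets of some genes around this pathway add to the brightest one; Ccnd2, Pias1 and Xbp1 were named after their values were seen. The 5 probe sets of Ccnd2, a cyclin that cytokines induce in B cells, had log2 ratios (marginal zone divided by follicular) from 0.36 to 1.34, all higher in marginal zone cells, although the brightest, at 240.4 in marginal zone and 187.4 in follicular cells, was within 2-fold. Pias1, which limits STAT proteins, was lower in marginal zone cells by all 3 probe sets, from -1.01 to -0.64. Xbp1, a factor of secretory cells, ran from -0.98 to 0.73 over 4 probe sets, and Rnf7 from -0.27 to 0.98 over 2, so their direction depended on the probe set.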
